A study of Mus musculus with 2 samples.

Results

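The cytoplasmic ribosome of mammalian cells is built from a small (40S) and a large (60S) subunit, and the genes described here encode their proteins. They were chosen by name, as the symbols that begin with Rps or Rpl and a number, together with Rpsa, Rplp0, Rplp1 and Rplp2, leaving out the S6 kinases. The names matched 84 of the 32285 genes in the files. Of these, 81 held at least 100 unique molecular identifiers (UMIs, each standing for 1 captured RNA molecule) over both libraries and are the genes described. The other 3 were copies of known relatives: Rpl10l held 0 UMIs, Rpl39l held 3 and Rpl3l held 11, whereas the lowest of the 81, Rpl7l1, held 4184. The 81 comprised 31 proteins of the small subunit, 43 of the large subunit, 3 of the P-stalk (the arm of the large subunit that recruits translation factors) and 4 paralogs, which are close relatives of another ribosomal protein gene.

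Ribosomal protein mRNAs are among the most abundant of any cell and turn over slowly. Most of them begin with a C followed by a run of pyrimidines, the 5′ terminal oligopyrimidine (TOP) motif, through which the mTOR pathway and the RNA-binding protein LARP1 set how actively they are translated or how long they are kept. Because they are made in the nucleus and held in the cytoplasm, their share of a barcode's RNA also depends on how much cytoplasm that barcode captured. In liver, hepatocytes use their ribosomes largely for secreted plasma proteins, and Kupffer cells, the resident macrophages, are smaller cells with a different RNA content.

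The data come from the livers of 2 mice, with 1 single-cell library per mouse; both carried floxed Glul alleles (Glul f/f) and no tumour. The control mouse was infected with AAV8-GFP and the other with AAV8-Cre, which removes Glul, the gene of glutamine synthetase (the labels write GS-KO, here GS_KO). Both were 11 weeks old and were sampled 2 weeks after the virus, so both had the floxed alleles and a virus in common and differed in its cargo. No source used here names the promoter that drives Cre. Hepatocytes and purified non-parenchymal cells obtained after collagenase II perfusion (0.3 mg/mL) went into a 10x 5′ library, which the labels call both single-cell and single-nucleus. With 1 mouse per group there is no replicate, so no test between the groups exists and no p-value is given. Every interval below is a 95% interval for counting error only, and leaves out variation from mouse to mouse and from one preparation to the next.

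The control matrix held 166037 barcodes and 61635695 UMIs, and the GS_KO matrix 175937 barcodes and 57973740 UMIs. Barcodes were summed in sets by their UMIs: 200 to under 400 (116552 control and 143687 GS_KO barcodes), 500 to under 1000 (11989 and 10037) and 1000 or more (1703 and 1834). A further set, the Kupffer-marker barcodes, held at least 500 UMIs and at least 4 UMIs over Clec4f, Vsig4, Cd5l, C1qa, C1qb and C1qc (191 and 1082). The barcodes of 500 or more UMIs outside it numbered 13501 and 10789. The small barcodes are not shown to be cells, since no source used here states how the deposited barcodes were picked. The libraries shared 8108 barcode sequences, of which 65 held 500 or more UMIs in both. All 12 hepatocyte markers were detected in every set of both libraries, at 135175 and 143200 CPM (UMIs of a gene per 1000000 UMIs of the set) in all in the barcodes of 200 to under 400 UMIs and 76724 and 62976 CPM in those of 1000 or more. Of 12 marker lists for liver and blood cell types, all were higher in the GS_KO library at 200 to under 400 UMIs, among them T or NK cells (1.79 and 12.3 CPM), neutrophils (2.68 and 20.7 CPM) and monocytes or dendritic cells (0.447 and 6.90 CPM). In the cholangiocyte list Sox9 alone gave 922 of the 978 GS_KO UMIs. Above 1000 UMIs the hepatocyte, LSEC, stellate and platelet lists were lower and the others higher. The part of cell types other than Kupffer cells in the results was not tested. Glul, the deleted gene, was at 113 CPM in control and 9.78 CPM in GS_KO in the barcodes of 200 to under 400 UMIs. In those of 1000 or more it was at 124 and 31.5 CPM. In the Kupffer-marker barcodes Glul differed little, at 110 and 96.9 CPM, whereas the other barcodes of 500 or more UMIs had 119 and 22.6 CPM.

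The sequences at the annotated transcription starts, where the TOP motif would lie, are shown for genes at both ends of the comparison made below. RefSeq promoter sequence (GRCm38.p6) was at hand for 61 of the 81 genes. The lines give 30 bases before to 30 bases after the annotated start, 5′ to 3′. The first 5 genes were among those with the lowest GS_KO over control ratio and the last 5 among those with the highest. Capitals mark the longest run of C and T that begins with C within 20 bases of the start.
Rps28: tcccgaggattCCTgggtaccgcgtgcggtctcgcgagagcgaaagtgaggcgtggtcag
Rpl36al: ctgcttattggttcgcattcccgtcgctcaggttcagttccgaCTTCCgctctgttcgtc
Rpl35: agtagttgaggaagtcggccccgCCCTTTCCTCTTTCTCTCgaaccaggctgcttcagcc
Rps26: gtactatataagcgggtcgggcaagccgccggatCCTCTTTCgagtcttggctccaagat
Rpl38: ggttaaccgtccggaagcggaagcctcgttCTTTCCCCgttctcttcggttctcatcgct
Rps27l: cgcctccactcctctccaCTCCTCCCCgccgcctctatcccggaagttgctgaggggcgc
Rpl22l1: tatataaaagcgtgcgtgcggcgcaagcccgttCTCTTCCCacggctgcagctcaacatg
Rps4x: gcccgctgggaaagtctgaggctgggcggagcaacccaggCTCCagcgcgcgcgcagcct
Rpl12: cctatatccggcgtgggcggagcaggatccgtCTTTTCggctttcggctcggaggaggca
Rps9: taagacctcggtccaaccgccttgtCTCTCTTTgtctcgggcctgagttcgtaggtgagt
These windows are Rps28 at chr17:33824533-33824592 (- strand), Rpl36al at chr12:69184038-69184097 (- strand), Rpl35 at chr2:39005102-39005161 (- strand), Rps26 at chr10:128626477-128626536 (- strand), Rpl38 at chr11:114668550-114668609 (+ strand), Rps27l at chr9:66946056-66946115 (+ strand), Rpl22l1 at chr3:28805478-28805537 (+ strand), Rps4x at chrX:102189362-102189421 (- strand), Rpl12 at chr2:32961682-32961741 (+ strand) and Rps9 at chr7:3704011-3704070 (+ strand). Rps27l has a second annotated start, with a run of 5. The longest run was 3 bases in Rps28, 5 in Rpl36al, 18 in Rpl35, 8 in Rps26 and 8 in Rpl38, and 9 in Rps27l, 8 in Rpl22l1, 4 in Rps4x, 6 in Rpl12 and 8 in Rps9, so long and short runs stood in both groups. A run of at least 5 was found in 48 of the 61 genes (78.7%) against 52.2% of the 27025 genes in the table. A run of at least 8 was found in 31 (50.8%) against 15.7%, and a run of at least 10 in 21 (34.4%) against 7.39%. The match is to letters on the gene's own strand and says nothing of where transcripts started in these livers.

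Ribosomal protein mRNA took a smaller share of RNA in the GS_KO library at each of the UMI ranges compared. In the barcodes of 200 to under 400 UMIs the 81 genes held 3.07% of control and 2.72% of GS_KO UMIs, 1.13-fold lower (log2 ratio -0.18, interval -0.18 to -0.17). In those of 500 to under 1000 UMIs they held 2.55% and 2.29%, 1.11-fold lower (-0.15, -0.16 to -0.14). In those of 1000 or more they held 1.35% and 1.00%, 1.34-fold lower (-0.42, -0.45 to -0.40). Since UMIs were summed over barcodes, a change in which cells contributed and a change in RNA per cell cannot be told apart. The Kupffer-marker barcodes went the other way, with 3.96% and 4.65%, 1.17-fold higher (0.23, 0.19 to 0.27). Single barcodes overlapped widely: the middle 90% of barcodes of 1000 or more UMIs ran from 0.502% to 3.13% in the control and from 0.342% to 2.52% in the GS_KO library, with medians of 1.17% and 0.845%.

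The share of nuclear RNA moved with this difference. Malat1, a long RNA that stays in the nucleus, was at 7812 CPM in control and 17706 CPM in GS_KO barcodes at 500 to under 1000 UMIs, and at 19613 and 37630 CPM at 1000 or more. In the barcodes of 200 to under 400 UMIs it was lower in the GS_KO library, at 1709 and 1365 CPM. The mitochondrial share was lower in the GS_KO library too, at 9.32% and 8.38% of UMIs at 200 to under 400 UMIs and 3.64% and 2.41% at 1000 or more. From 500 to 2000 UMIs per barcode, each larger size range of both libraries had a lower ribosomal protein share and a higher Malat1 share, as the plot by barcode size shows.

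**Figure D1:**
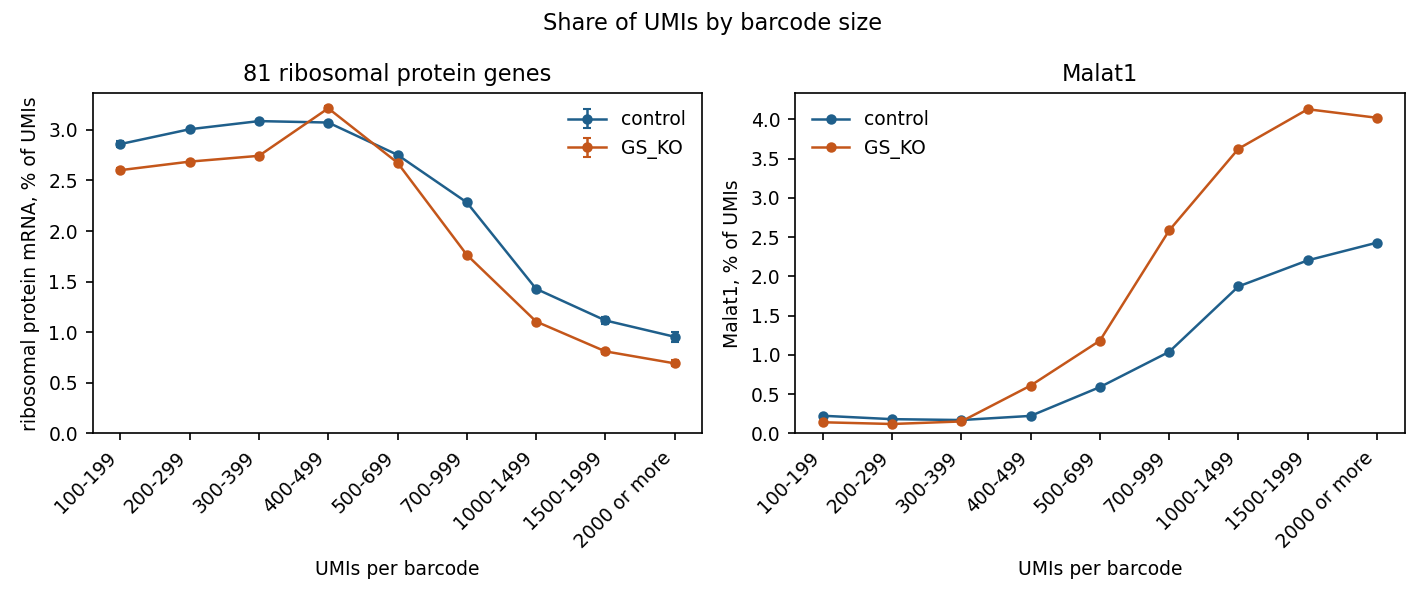
Left, share of UMIs (%) held by the 81 ribosomal protein genes against UMIs per barcode, with exact binomial 95% intervals; right, share of Malat1 (%). Blue is the control and orange the GS_KO library. From 300 to under 400 UMIs to 2000 or more, the ribosomal protein share went from 3.09% to 0.954% in the control and from 2.74% to 0.691% in the GS_KO library, while Malat1 went from 0.168% to 2.43% and from 0.150% to 4.02%.

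When barcodes were grouped by their own Malat1 share, the direction depended on the group. Among barcodes of 1000 or more UMIs with Malat1 under 0.5%, the 135 control and 43 GS_KO barcodes held 3.42% and 3.44% ribosomal protein UMIs (log2 ratio 0.00). At 1% to 2% Malat1 the share was 1.25% in 674 control and 1.74% in 155 GS_KO barcodes (0.47). At 2% to 4% it was 1.03% in 720 and 0.987% in 891 (-0.06). At 4% or more it was 0.921% in 35 control and 0.729% in 727 GS_KO barcodes (-0.34). With the groups of at least 20 barcodes in both libraries given equal weight in both, the log2 ratio was 0.06 at 1000 or more UMIs and 0.20 at 500 to under 1000 UMIs, both turned in sign from the ratio over all barcodes. It was -0.04 at 200 to under 400 UMIs and 0.36 in the Kupffer-marker barcodes, whose direction did not change. At 200 to under 400 UMIs most barcodes had under 0.5% Malat1 (103821 control and 134659 GS_KO barcodes), and there the shares were 3.09% and 2.72% (-0.18). With nuclear RNAs left out of the total in place of grouping, the log2 ratios were -0.18, -0.14 and -0.40 from the smallest to the largest range.

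**Figure D2:**
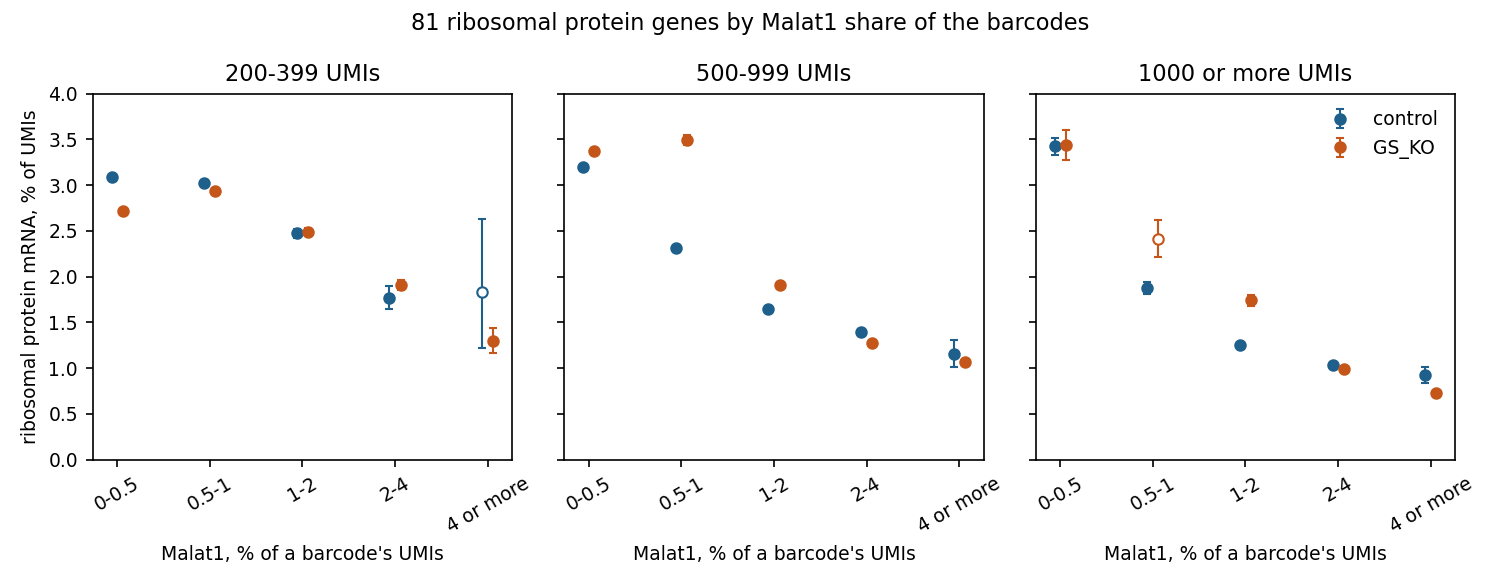
Share of UMIs (%) held by the 81 ribosomal protein genes in barcodes grouped by their Malat1 share (%), for 3 ranges of UMIs per barcode, with exact binomial 95% intervals. Open circles stand for fewer than 20 barcodes. In barcodes of 1000 or more UMIs the GS_KO library lay above the control at 1-2% Malat1 (1.74% against 1.25%) and below it at 4% or more (0.729% against 0.921%).

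Kupffer marker RNA also differed between the libraries. The 6 Kupffer genes that define the set were at 107 CPM in control and 644 CPM in GS_KO barcodes at 200 to under 400 UMIs, and at 78.8 and 498 CPM at 1000 or more. Of 6 further Kupffer markers that the definition does not use, 5 were higher in the GS_KO library in the first range and 4 in the second. Their sums were 233 and 227 CPM and 193 and 188 CPM, since Slc40a1, which held most of their UMIs, was lower at 217 and 150 CPM and at 177 and 117 CPM. With the Kupffer-marker barcodes left out, the difference in the remaining barcodes was wider, at a log2 ratio of -0.19 for 200 to under 400 UMIs, -0.34 for 500 to under 1000 and -0.54 for 1000 or more. Over the barcodes of 500 or more UMIs with fewer than 4 Kupffer UMIs the share was 2.27% in control and 1.70% in GS_KO barcodes (-0.42, -0.42 to -0.41). That value also depended on Malat1: by Malat1 group, from the lowest, the log2 ratio in these barcodes was -0.12, 0.38, 0.19, -0.08 and -0.17, and with the groups weighted equally it was 0.07. At 400 to under 500 UMIs, a range outside the sets, the GS_KO share was the higher one, at 3.21% against 3.07%, and 14.6% of GS_KO barcodes but 0.924% of control barcodes held 4 or more Kupffer UMIs.

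Single genes mostly followed the sum. At 200 to under 400 UMIs 66 of the 81 were lower in the GS_KO library and 15 higher, with a median log2 ratio of -0.22 against -0.04 over the 12268 genes with at least 50 UMIs there. A fold of 1.5 was used as the threshold of size. Only Rps28, Rpl36, Rps26 and Rps21 were lower by that much, 4 of 81, against 11.4% of all genes, and 0 were higher against 18%. At 500 to under 1000 UMIs 64 were lower and 17 higher (median -0.18, all genes 0.11). Past the threshold were 2 lower, Rpl36 and Rps28, against 9.86% of all genes, and 0 higher against 23.3%. At 1000 or more UMIs 79 were lower and 2 higher (median -0.44, all genes 0.00), with 27 lower by 1.5-fold against 14.9% of all genes and 0 higher against 19.8%. Outside the Kupffer-marker barcodes at 500 or more UMIs, 79 were lower (median -0.47, all genes 0.08), 27 of them by 1.5-fold against 11.4% of all genes, and 0 were higher by 1.5-fold against 21.9%. Within Malat1 groups of barcodes of 1000 or more UMIs the counts differed from group to group. At 1% to 2% Malat1, 65 of the 74 members with 50 or more UMIs were higher, against 1615 of 3701 over all genes. At 2% to 4%, 46 of 79 were lower, against 2944 of 5752 over all genes.

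**Figure D3:**
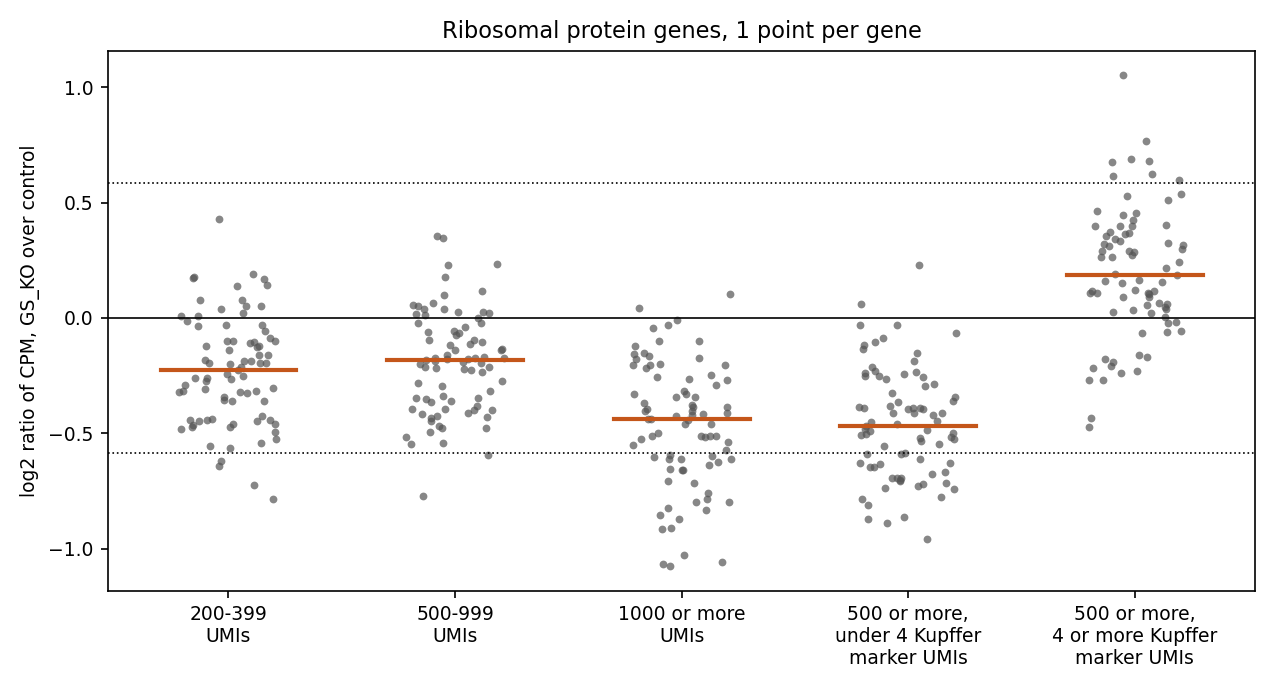
Log2 ratio of CPM, GS_KO over control, for each ribosomal protein gene with at least 50 UMIs (81 genes in the first 4 sets, 79 in the Kupffer-marker barcodes). Orange lines are medians and dotted lines mark 1.5-fold; horizontal position within a set is random. The medians are -0.22, -0.18, -0.44, -0.47 and 0.18 from left to right.

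The 2 subunits had ratios close to each other. At 200 to under 400 UMIs the small-subunit genes held 1.26% of control and 1.12% of GS_KO UMIs (log2 ratio -0.17, interval -0.18 to -0.17; 26 of 31 lower). The large-subunit genes held 1.63% and 1.44% (-0.18, -0.19 to -0.18; 37 of 43 lower). The P-stalk genes held 0.134% and 0.120% (-0.16, -0.17 to -0.14). In the barcodes of 1000 or more UMIs the log2 ratios were -0.43, -0.42 and -0.46 in the same order, with 31 of 31, 42 of 43 and 3 of 3 genes lower.

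Within the P-stalk the genes did not move alike. Rplp0, the scaffold protein of the stalk, was at 455 CPM in control and 472 CPM in GS_KO barcodes at 200 to under 400 UMIs (log2 ratio 0.05, 0.02 to 0.08). Rplp1, one of its acidic partners, stood at 600.3 and 524 CPM (-0.20, -0.22 to -0.17). Rplp2, the other, stood at 279.6 and 202 CPM (-0.47, -0.51 to -0.43). The same order held at 1000 or more UMIs, with log2 ratios of -0.15 (-0.35 to 0.05), -0.55 (-0.73 to -0.37) and -0.80 (-1.07 to -0.53).

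Rpl19, Rpl13, Rps3a1, Rpl10 and Rpsa, all with many UMIs in the control library, had log2 ratios between -0.11 and 0.02 at 200 to under 400 UMIs. Rpl19, a large-subunit protein, was at 879 CPM in control and 844 CPM in GS_KO barcodes (log2 ratio -0.06, -0.08 to -0.04), and Rpl13 at 868 and 881 CPM (0.02). Rps3a1 stood at 828 and 773 CPM (-0.10) and Rpl10 at 824 and 763 CPM (-0.11). Rpsa, the laminin receptor-related protein of the small subunit, stood at 726 and 730.2 CPM (0.01, -0.02 to 0.03). These 5 genes were all lower in the GS_KO library at 1000 or more UMIs, where Rpl13 stood at 373 and 320.4 CPM (-0.22, -0.36 to -0.08).

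The 3 lowest ratios at 200 to under 400 UMIs belonged to genes of short coding sequences, of 207, 315 and 345 nucleotides. Shorter genes were not always lower, as Rpl39, of 153 nucleotides, had a log2 ratio of -0.30 there. Rps28 was at 116 CPM in control and 67.1 CPM in GS_KO barcodes at 200 to under 400 UMIs (log2 ratio -0.79, -0.85 to -0.72), and at 55.0 and 26.2 CPM at 1000 or more (-1.06, -1.53 to -0.62). Rpl36 stood at 244 and 148 CPM (-0.73, -0.77 to -0.68) and at 105 and 60.6 CPM (-0.80, -1.11 to -0.49). Rps26, a small-subunit protein at the mRNA exit channel, stood at 333 and 214 CPM (-0.64) and at 145 and 80.2 CPM (-0.86). These 3 genes were thus lower in both ranges with intervals that did not reach 0.

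Rps21 (-0.62), Rpl38 (-0.56) and Rpl41 (-0.56) completed the 6 lowest log2 ratios at 200 to under 400 UMIs. At 1000 or more UMIs the 6 lowest were Rpl36al (143 and 67.5 CPM, log2 ratio -1.08, -1.36 to -0.80), Rps28, Rpl35 (63.2 and 30.3 CPM, -1.06), Rps29 (44.4 and 21.7 CPM, -1.03), Rps25 (118 and 62.6 CPM, -0.92) and Rpl38 (44.0 and 23.3 CPM, -0.91).

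The highest ratios at 200 to under 400 UMIs belonged to Rps27l, Rpl22l1, Rps4x, Rpl12, Rps9 and Rpl3. Rps27l, a paralog of Rps27 known as a p53 target, was at 94.5 CPM in control and 127 CPM in GS_KO barcodes (log2 ratio 0.43, 0.37 to 0.49). Rpl22l1, the paralog of Rpl22, stood at 60.3 and 68.9 CPM (0.19, 0.11 to 0.27). Rps4x, the X-linked copy of the small-subunit protein S4, stood at 448 and 507 CPM (0.18), Rpl12 at 224 and 253 CPM (0.17), Rps9 at 441 and 495 CPM (0.17) and Rpl3 at 300.2 and 332 CPM (0.14). At 1000 or more UMIs the same 6 genes had the highest ratios, between -0.10 and 0.10, and the interval of each reached across 0. Rps27l there stood at 49.5 and 53.2 CPM (0.10, -0.27 to 0.49).

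Paralog and parent parted in 2 of the 4 detected pairs. Rps27l made up 47.3% (46.1 to 48.4) of the UMIs of Rps27l and Rps27 together in the control library at 200 to under 400 UMIs, and 63.7% (62.7 to 64.7) in the GS_KO library, since Rps27 was lower there at 105 and 72.5 CPM. Rpl22l1 made up 27.7% (26.8 to 28.7) and 37.6% (36.6 to 38.7) of its pair with Rpl22, which stood at 157 and 114 CPM. At 1000 or more UMIs the shares were 55.1% (47.9 to 62.2) and 65.3% (58.3 to 71.9) for Rps27l, and 25.2% (19.7 to 31.3) and 33.3% (26.7 to 40.5) for Rpl22l1, with intervals that overlapped. In the Kupffer-marker barcodes they were 57.1% and 44.1% for Rps27l and 38.2% and 37.4% for Rpl22l1, on 28 and 34 control UMIs in all.

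In the remaining pairs the intervals of the share overlapped between the libraries at 200 to under 400 UMIs. Rpl7l1 made up 10.3% (9.73 to 10.8) of its pair with Rpl7 in the control and 10.5% (10.0 to 11.0) in the GS_KO library at 200 to under 400 UMIs. Rpl36al made up 74.1% (73.4 to 74.8) and 73.0% (72.3 to 73.8) of its pair with Rpl36a, so both were lower together, with log2 ratios of -0.44 and -0.36. Over all barcodes the Rpl36al shares were 74.1% (73.6 to 74.7) and 72.8% (72.1 to 73.4), whose intervals did not overlap.

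The ratio went with the length of the coding sequence. The 81 genes were put in 3 groups of 27 at coding lengths of 398 and 568 nucleotides. At 200 to under 400 UMIs the median log2 ratio was -0.45 in the shortest (25 of 27 lower), -0.27 in the middle group (26 of 27 lower) and -0.03 in the longest (15 lower, 12 higher). The medians at 1000 or more UMIs were -0.66, -0.44 and -0.25, and 17, 9 and 1 of 27 were lower by 1.5-fold, against 14.9% of all genes. Spearman's rho between coding length and log2 ratio was 0.72 across the 81 genes at 200 to under 400 UMIs, 0.60 at 500 to under 1000, 0.61 at 1000 or more and 0.55 across 79 genes in the Kupffer-marker barcodes. These are correlations across genes that share the same 2 libraries, and are given as a description.

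**Figure D4:**
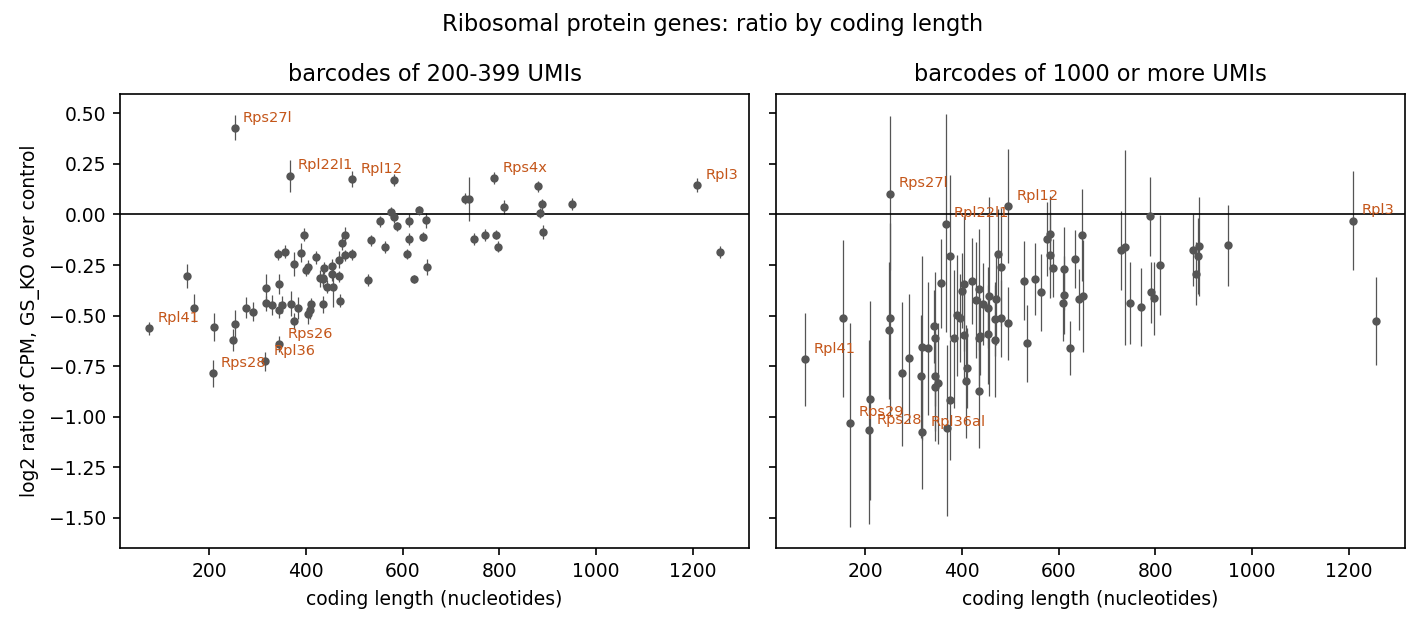
Log2 ratio of CPM, GS_KO over control, against coding length (nucleotides) for each of the 81 ribosomal protein genes, with exact conditional 95% intervals. The lowest points in both panels are short genes. Rps27l (252 nucleotides, log2 ratio 0.43 at 200 to under 400 UMIs) lies above the others of its length.

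This relation held inside groups of equal Malat1 share at 200 to under 400 UMIs, where rho was 0.72 below 0.5% Malat1, 0.61 at 0.5% to 1%, 0.63 at 1% to 2% (79 genes) and 0.51 at 2% to 4% (48 genes). Rps28 was lower in the GS_KO library in the first 3 of these groups, at log2 ratios of -0.82, -0.41 and -0.69, and Rps27l was higher at 0.44, 0.38 and 0.42. In barcodes of 1000 or more UMIs rho was 0.26, 0.24, 0.47, 0.51 and 0.06 from the lowest to the highest Malat1 group, over 60, 35, 74, 79 and 61 genes. Among other genes of the same range of coding lengths rho was 0.03 at 200 to under 400 UMIs (5169 genes) and 0.11 at 1000 or more (3235 genes). Summed over all other genes under 300 nucleotides, the share of UMIs was 3.51% in control and 2.24% in GS_KO barcodes at 200 to under 400 UMIs (log2 ratio -0.65), and their median was -0.16. In the next range, up to 450 nucleotides, the sum was -0.21 and the median -0.13. From 600 to 1200 nucleotides the sum was 0.10 but the median -0.03.

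Genes with and without a long start motif overlapped in their ratios. Genes with a pyrimidine run of 8 or more had a median log2 ratio of -0.20 (31 genes) at 200 to under 400 UMIs and those with a shorter run or none -0.30 (30 genes), with ranges of -0.64 to 0.43 and -0.79 to 0.18. The medians were -0.44 and -0.42 at 1000 or more UMIs. Median coding lengths of the 2 groups were 444 and 436.5 nucleotides.

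The ribosomal protein share differed more between barcode sizes than between the libraries. From 200 to under 400 up to 1000 or more UMIs the share was 2.28-fold lower in the control and 2.71-fold lower in the GS_KO library, and 80 and 81 of 81 genes were lower. Most genes of other lists were lower as well: 77 of 79 and 77 of 78 of the nuclear respiratory chain. For mitochondrial ribosomal proteins it was 73 of 78 in both libraries, and for proteasome subunits 33 and 34 of 39. No count over all genes is given for this comparison. Rpl7l1, the paralog of Rpl7, stood apart with log2 ratios of 0.03 and -0.21 between these ranges. Rps18 was next, at -0.44 and -0.48, where the medians were -1.18 and -1.44. Rps18 was counted at 48.7 and 38.0 CPM at 200 to under 400 UMIs. Whether reads shared with near-identical copies of the gene affect this count was not tested. Mitochondrial genome genes were 2.56-fold and 3.47-fold lower across the same ranges, and proteasome subunits 1.60-fold and 1.88-fold lower.

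In the Kupffer-marker barcodes most ribosomal protein genes were higher in the GS_KO library. Of the 79 with at least 50 UMIs, 62 were higher and 17 lower (median log2 ratio 0.18, all 3361 genes 0.03). Higher by 1.5-fold were 8, against 19.6% of all genes, and 0 were lower by that much, against 15.7%. The 8 became 3, and the median 0.10, with 5 counts added to each sum, and the count was 5 without barcodes over 10% mitochondrial and 16 with Malat1 groups weighted equally. The share of all genes under these alternatives is not given. The interval lay above 0 for 23 of them, against 11.7% of all genes, and below 0 for none, against 9.94%. Rpl29 was at 196 CPM in control and 414 CPM in GS_KO barcodes (log2 ratio 1.05, 0.49 to 1.73), Rpl10a at 369 and 632 CPM (0.77, 0.35 to 1.24) and Rpsa at 816 and 1320 CPM (0.69, 0.40 to 1.00). The lowest were Rps28 at 180.4 and 132 CPM (-0.47, -1.11 to 0.27), Rpl39 at 329 and 246 CPM (-0.43, -0.91 to 0.10) and Rps15 at 447 and 373 CPM (-0.27, -0.68 to 0.18). Large-subunit genes had a summed log2 ratio of 0.28 (0.22 to 0.34), small-subunit genes 0.19 (0.13 to 0.25) and P-stalk genes 0.15 (-0.04 to 0.35). By coding length, the 27 shortest genes showed little difference, at 0.02 (-0.07 to 0.11). Of these 15 were higher and 12 lower, where 1734 of 3361 were higher over all genes. The middle group had 0.23 (0.16 to 0.30) and the longest 0.33 (0.26 to 0.39). These values rest on 5049 control and 35484 GS_KO ribosomal protein UMIs.

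Other contents of the Kupffer-marker barcodes differed too. Their median was 574 UMIs in control and 605 in GS_KO barcodes, and the 6 Kupffer markers outside the set's definition stood at 3309 and 2729 CPM in all, 4 of them higher in the GS_KO library. Slc40a1 stood at 1741 and 1290 CPM and Cd163 at 408 and 43.2 CPM. The 12 hepatocyte markers stood at 74824 and 60986 CPM, with 3 of them higher in the GS_KO library. The mitochondrial share was 6.33% and 4.55%, and Malat1 stood at 5992 and 8832 CPM. Among the other lists, B cell markers stood at 15.7 and 82.5 CPM (2 and 63 UMIs) and neutrophil markers at 23.5 and 56.3 CPM (3 and 43 UMIs). Stellate cell markers were lower in the GS_KO library at 1427 and 845 CPM, plasma cell markers at 416 and 276 CPM and platelet markers at 54.9 and 7.86 CPM. T or NK cell markers had 0 and 2 UMIs. Among the B cell markers Cd79b, Ms4a1 and Ebf1 were at 0 in the control, and among the neutrophil markers S100a8, S100a9, Retnlg, Ly6g and Mmp9. The part of these differences in the result was not tested.

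Kupffer-marker barcodes held more ribosomal protein RNA than the other barcodes of 500 or more UMIs in both libraries. The shares were 3.96% and 2.27% in the control, 1.74-fold higher, and 4.65% and 1.70% in the GS_KO library, 2.73-fold higher. Malat1 was lower in the Kupffer-marker barcodes, at 5992 against 10416 CPM in the control and 8832 against 24325 CPM in the GS_KO library. Among barcodes under 0.5% Malat1 the folds were 1.49 and 2.04, at 0.5% to 1% they were 1.63 and 1.70, and at 1% to 2% they were 1.56 and 1.66. With the other barcodes weighted to the same UMIs per barcode, the folds were 1.63 and 2.50. Of the 81 genes, 78 were higher in the Kupffer-marker barcodes of the control and 81 in those of the GS_KO library. The count over all genes is not given for this comparison, so these counts are not read as a result about these genes. Rps29 (log2 1.56 and 2.40) and Rps23 (1.56 and 1.90) were among the genes furthest above, whereas Rpl4 (-0.10 and 0.38) and Rpl36al (-0.18 and 0.57) were among the lowest in both. The third gene that was lower in the control, Rps18, rested on 2 UMIs there. The share was higher with more Kupffer UMIs, and the libraries crossed near the limit of 4. Barcodes with 2 or 3 such UMIs held 2.61% and 2.57%, and those with 4 or 5 held 3.45% and 3.74%. Those with 6 to 9 held 4.10% and 4.57%, and those with 10 or more 4.71% and 5.28%. Of the 191 control and 1082 GS_KO Kupffer-marker barcodes, 41 and 431 held 10 or more such UMIs. The part of this difference in the ratio of the Kupffer-marker barcodes was not tested.

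**Figure D5:**
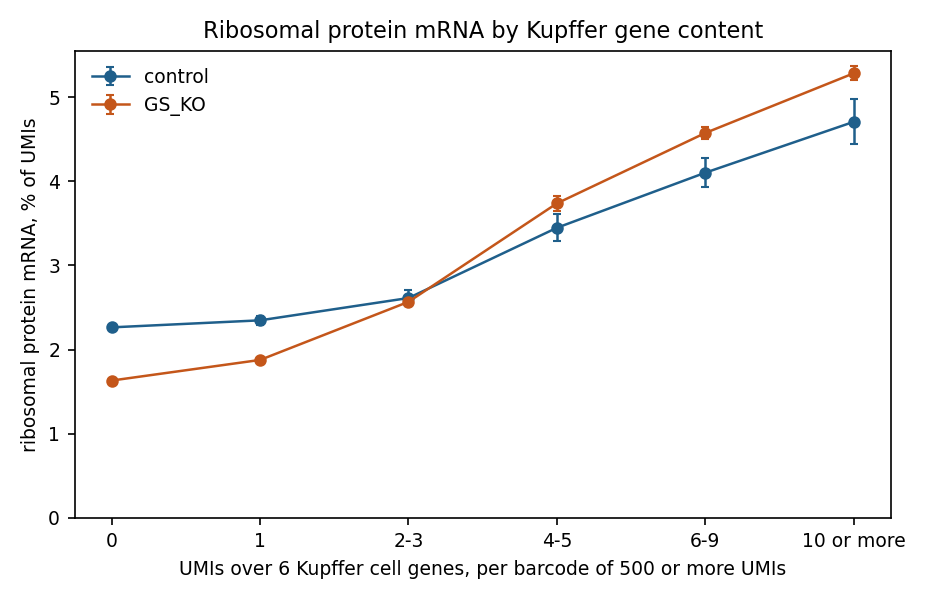
Share of UMIs (%) held by the 81 ribosomal protein genes in barcodes of 500 or more UMIs, against the UMIs a barcode held over the 6 Kupffer genes, with exact binomial 95% intervals. The control went from 2.26% at 0 to 4.71% at 10 or more, and the GS_KO library from 1.63% to 5.28%.

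Other genes of the translation machinery were mostly lower in the GS_KO library as well. Beside the counts that follow, 6525 of all 12268 genes were lower at 200 to under 400 UMIs, 11.4% by 1.5-fold, and 3985 of 8018 at 1000 or more, 14.9% by 1.5-fold. Of 19 TOP-type translation factors, 17 were lower at 200 to under 400 UMIs (median log2 ratio -0.25, 2 by 1.5-fold) and 18 at 1000 or more (median -0.57, 8 by 1.5-fold). Eef1a1, which brings aminoacyl-tRNA to the ribosome, stood at 2930 and 2195 CPM at 200 to under 400 UMIs (-0.42). Tpt1 stood at 1196 and 1161 CPM (-0.04). Fau, whose product is cleaved to the small-subunit protein S30, stood at 741 and 501 CPM (-0.56). In the Kupffer-marker barcodes 10 of 18 were higher and 8 lower (median 0.05).

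Genes of ribosome assembly were lower in 35 of 42 cases at 200 to under 400 UMIs (median -0.26, 7 by 1.5-fold) and in 29 of 35 at 1000 or more (median -0.43, 12 by 1.5-fold and 2 higher by it). Ncl, the nucleolar protein nucleolin, stood at 333 and 243 CPM at 200 to under 400 UMIs. Genes of translation initiation and of mTOR or Myc control were lower in 28 of 33 cases (median -0.23) and in 18 of 30 (median -0.26). Among these Eif1, which helps select the start codon, stood at 832 and 609 CPM (-0.45) and at 408 and 294 CPM (-0.47). Larp1, which binds TOP mRNAs, had log2 ratios of 0.03 and 0.17, Mtor -0.13 and 0.29, and Myc -0.70 and -0.57, the last on 42 UMIs in the larger barcodes.

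Lists outside cytoplasmic translation gave a scale for these values. Mitochondrial ribosomal proteins were lower in 67 of 78 cases at 200 to under 400 UMIs (median -0.18) and in 60 of 70 at 1000 or more (median -0.34). Nuclear genes of the respiratory chain were lower in 78 of 80 (median -0.52) and 77 of 77 (median -0.80), with 31 and 64 lower by 1.5-fold, further than the ribosomal proteins. Proteasome subunits were lower in 21 of 39 (median -0.03) and 26 of 37 (median -0.29). The ribosomal RNA-derived feature Gm42418 stood at 12622 and 8692 CPM at 200 to under 400 UMIs and 6610 and 3572 CPM at 1000 or more. Of the snoRNA host genes, 10 of 10 were lower at 200 to under 400 UMIs (median -0.43, 3 by 1.5-fold), and Gas5, itself a TOP-type transcript, stood at 67.2 and 62.5 CPM. At 1000 or more UMIs only 1 of them held 50 UMIs, and it was higher by 1.5-fold (0.60); the sum of the 10 was higher there too (0.28, 0.02 to 0.53).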

How the data were processed

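RNA was counted in 2 mouse liver libraries, 1 mouse each. Per the file headers, the authors deposited UMI counts from Cell Ranger 8.0.0, not normalized; the build is mm10 per the submitters' processing notes. Raw counts were summed over the barcodes of each set and scaled to CPM of the set's total, so a higher share of other RNA lowers every gene. A ratio is the log2 of GS_KO CPM over control CPM, after adding 0.5 counts to both sums. Intervals are exact 95% ones (Clopper-Pearson for shares, Poisson-based conditional for ratios) and cover counting error only. A gene entered a comparison when the libraries held 50 or more UMIs of it in that set, and 1.5-fold was the threshold of size. No test between groups was possible. Doublets were not treated. The summing and intervals were tested on simulated data. Coding lengths came from the GENCODE annotation of GRCm38 and start sequences from RefSeq; protein features were not analysed here. Named genes are the 6 highest and 6 lowest ratios at 200 to under 400 and at 1000 or more UMIs, the 3 highest and 3 lowest in Kupffer-marker barcodes, the 5 with most control UMIs (of which 1 is not reported here), Rpsa, the P-stalk, paralogs with their parents, and the 3 genes with most UMIs of each related list; Larp1, Mtor, Myc, Rpl4, Rps18, Rps23, Slc40a1, Cd163, Sox9 and the start sequences shown were picked after their values were seen. The genes and lists were chosen with earlier results of these data known. Computations used scipy 1.17.1, pandas 2.3.3 and numpy 2.4.6 under Python 3.11.15, with figures from matplotlib 3.10.9.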

Additional observations from a re-analysis of the deposited data

Results flagged for a closer look

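The ribosomal protein genes moved in opposite directions in 2 kinds of barcode of 500 or more UMIs. In the Kupffer-marker barcodes the summed log2 ratio of GS_KO over control was 0.23, and in the other barcodes of that size it was -0.42. The difference between these ratios was not tested, since each rests on 1 library per group. With barcodes grouped by Malat1 share and the groups given equal weight, the Kupffer-marker value was 0.36 and the other turned to 0.07. These weighted values cover different groups. Below 2% Malat1 the Kupffer-marker groups held at least 20 barcodes in both libraries, whereas all groups of the other barcodes did. Inside the group under 0.5% Malat1 the directions were still opposite, at 0.34 in the Kupffer-marker and -0.12 in the other barcodes. In the other barcodes the ratio was above 0 at 0.5% to 1% Malat1 (0.38, 71 of 80 genes higher) and at 1% to 2% (0.19, 55 of 81). Over all genes 1625 of 4304 and 3125 of 7109 were higher in these groups. The ratio was below 0 in the lowest group (-0.12) and the highest pair (-0.08 and -0.17).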

How the results depend on the processing

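Values are log2 ratios of the summed genes, with the number of genes lower by 1.5-fold where it moved by over 1.5 times. The share of all genes past 1.5-fold under each alternative is not given. The changed counts therefore cannot be set against a background and are not read as a result about these genes. At 200 to under 400 UMIs the main value was -0.18 with 4 genes. It was -0.19 without mitochondrial genes in the total, -0.14 when scaled by the median ratio of other genes, -0.17 (from -0.175 to -0.170) at 300 to under 400 UMIs, -0.19 without Kupffer-marker barcodes, and -0.041 with 1 gene when Malat1 groups were weighted equally. At 500 to under 1000 UMIs the main value was -0.15 with 2 genes. It was -0.14 with 1 gene without nuclear RNA in the total, -0.18 without mitochondrial genes, -0.27 with 9 genes under median scaling, -0.041 with 1 gene at 500 to under 700 UMIs, and -0.34 with 18 genes without Kupffer-marker barcodes. Leaving out barcodes over 10% mitochondrial gave 1 gene. With Malat1 groups weighted equally it turned to 0.20 (median gene 0.19) with 0 genes. At 1000 or more UMIs the main value was -0.42 with 27 genes. It was -0.40 without nuclear RNA, -0.47 with 9 of 30 genes at 2000 or more UMIs, and -0.54 without Kupffer-marker barcodes. With Malat1 groups weighted equally it turned to 0.056 (median gene 0.067) with 6 genes. In Kupffer-marker barcodes the main value was 0.23 with 0 genes lower. It was 0.36 with equal Malat1 groups and 0.29 with 5 of 33 genes lower at 1000 or more UMIs, on 12 control barcodes. There was 1 gene lower with 5 counts added, 1 without barcodes over 10% mitochondrial, and 3 with 6 or more marker UMIs. The number higher by 1.5-fold, 8 in the main value, was 3, 5 and 16 with 5 counts added, without barcodes over 10% mitochondrial and with equal Malat1 groups. In the barcodes of 500 or more UMIs outside that set the main value was -0.42, and it turned to 0.071 with equal Malat1 groups. Leaving out Kupffer-marker barcodes and the last alternative were chosen after the data were seen. Apart from the turns under equal Malat1 groups, the cause of which was not tested, the sums of the 4 main sets kept their sign under all 9 alternatives of each. No paired analysis was possible because each group is 1 library. The 191 control Kupffer-marker barcodes limit the single-gene ratios there.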
